A study of Mus musculus with 2 samples.

Results

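Kruppel-like factors are transcription factors whose zinc fingers bind GC-rich DNA and CACCC motifs. The 8 genes described here are Klf2, Klf3, Klf4, Klf6, Klf7, Klf9, Klf10 and Klf13. They were taken by symbol from the 41605 genes of the deposited matrices, and each symbol occurred in both libraries. Their transcripts were counted in 2 single-cell RNA libraries made from the hippocampus of male mice, 10 weeks old, of the wild-type strain C57BL/6. Each library was a pool of cells from 3 mice, cleared of debris and myelin on a Percoll gradient and built with the 10x 3' version 3 chemistry. The series sets digestion with enzymes (30 min, 37 °C) against mechanical dissociation in the cold (4 °C). No label ties either library to a method, so they are called library 1 and library 2, and no ratio is taken between them. Ratios run between cell classes of the same library, and only a ranking of genes by likeness, given last, uses class sums of both.

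Members differ in what they are known for. Klf2 and Klf4 are switched on in endothelium by laminar flow through the MEK5, ERK5 and MEF2 pathway and favour an anti-inflammatory, anti-clotting state, and both also restrain inflammatory genes in macrophages. Klf6 and Klf10 are early response genes, of injury and of transforming growth factor beta. Klf3 represses transcription by recruiting CtBP proteins. Klf7 is known for its part in axon growth, and Klf9 and Klf13 are close relatives that respond to thyroid hormone, Klf9 also to glucocorticoids, and that act in the maturation of neurons and oligodendrocytes.

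The genes lie on 8 chromosomes of GRCm38 (GENCODE M21). Klf2 is at chr8:72319033-72321656 and Klf6 at chr13:5861482-5870394, both on the plus strand, as are Klf3 at chr5:64803388-64832901 and Klf9 at chr19:23141226-23168134. On the minus strand are Klf4 at chr4:55527143-55532466, Klf7 at chr1:64029447-64122282, Klf10 at chr15:38291463-38300706 and Klf13 at chr7:63886351-63938915. Exons of Klf3 overlap those of Gm20033 on the opposite strand, and exons of Klf7 overlap those of Gm13748 and Gm26649. Gm20033 had 1320 UMIs (unique molecular identifiers, each a tagged RNA molecule) over all barcodes of library 1, where Klf3 had 1439, and 82 in library 2, where Klf3 had 3837. These genes were counted apart from the members, but no source used here states the strand setting, so the levels of Klf3 in library 1 are uncertain to that extent.

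The promoters of 5 members are shown because Klf2, Klf4 and Klf6 differ most with the immediate early genes described further on, and Klf9 and Klf13 are relatives whose ratios there stayed within 2-fold. The sequences come from RefSeq (GRCm38.p6), read 5′ to 3′ on the gene's strand, and span 221 bases that end 30 bases before the start in the RefSeq table, which is not always the GENCODE start given above. They are Klf2 chr8:72318812-72319032, plus strand; Klf4 chr4:55532505-55532725, minus strand; Klf6 chr13:5861239-5861459, plus strand; Klf9 chr19:23140976-23141196, plus strand; and Klf13 chr7:63938945-63939165, minus strand. Capitals mark TGACG, the core of cyclic AMP response elements, the E-box CACGTG, and matches to the MEF2 consensus, each on either strand.
Klf2: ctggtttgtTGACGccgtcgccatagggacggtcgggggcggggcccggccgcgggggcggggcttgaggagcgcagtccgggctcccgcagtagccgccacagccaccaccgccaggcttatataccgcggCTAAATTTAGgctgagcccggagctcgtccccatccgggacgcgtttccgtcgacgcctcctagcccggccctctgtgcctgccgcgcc
Klf4: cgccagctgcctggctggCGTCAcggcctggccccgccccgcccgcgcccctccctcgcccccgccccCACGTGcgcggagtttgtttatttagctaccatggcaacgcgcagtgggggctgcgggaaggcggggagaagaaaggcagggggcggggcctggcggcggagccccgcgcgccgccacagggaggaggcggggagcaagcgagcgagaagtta
Klf6: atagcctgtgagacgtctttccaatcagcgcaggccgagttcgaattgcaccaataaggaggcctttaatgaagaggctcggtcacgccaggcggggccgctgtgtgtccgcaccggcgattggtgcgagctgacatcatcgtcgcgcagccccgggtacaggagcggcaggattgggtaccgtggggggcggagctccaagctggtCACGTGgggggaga
Klf9: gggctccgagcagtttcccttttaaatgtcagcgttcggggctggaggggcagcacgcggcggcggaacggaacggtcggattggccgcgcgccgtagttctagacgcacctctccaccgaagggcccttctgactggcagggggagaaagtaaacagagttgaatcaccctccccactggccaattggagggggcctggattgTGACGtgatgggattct
Klf13: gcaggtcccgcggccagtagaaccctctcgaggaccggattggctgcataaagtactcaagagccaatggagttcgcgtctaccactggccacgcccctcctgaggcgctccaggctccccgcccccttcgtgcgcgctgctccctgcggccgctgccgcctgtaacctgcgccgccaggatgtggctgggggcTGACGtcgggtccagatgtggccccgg

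Promoter entries were found for 7 of the 8 members. Klf2 alone of these held a match to the MEF2 consensus, 118 bases before that start, which 2.61% of the 32851 promoter windows of the same length hold. TGACG was found in Klf2, Klf4, Klf9 and Klf13, against 15.0% of all windows, so it was found in both sets of members shown. CACGTG was found in Klf4 and Klf6, against 5.02%. The GC box GGGCGG was in 6 of the 7, all but Klf9, against 28.7%, and CCACCC was in Klf3 and Klf7, against 25.1%. No member window held TGACGTCA (1.16% of all), which contains TGACG, nor TATAAA (9.99%), nor the CArG box that binds serum response factor (1.30%). The windows end 30 bases before the start, so a TATAAA nearer to the start would not be seen. A match is a string of letters and not evidence of binding.

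Cells were assigned to classes by marker genes, and names end in "-like" because they rest on RNA alone. Library 1 kept 5989 of 12306 barcodes, with a median of 1695 UMIs, and library 2 kept 2075 of 6448, with a median of 6433. The libraries hold different cells. Library 1 gave 687 microglia-like, 94 oligodendrocyte-like, 198 astrocyte-like, 4773 neuron-like and 53 choroid plexus-like cells. Library 2 gave 172 endothelial-like, 1523 microglia-like and 78 pericyte-like or smooth muscle-like cells, and 46 oligodendrocyte-like cells, which fall under the minimum of 50 cells and are shown because that comparison had been set. Other classes were under the minimum in a library, among them 46 choroid plexus-like, 41 neuron-like and 26 astrocyte-like cells of library 2 and 6 endothelial-like cells of library 1, and are left out of the comparisons. The cell limits set the size of some classes: at 500 UMIs and 250 genes library 1 held 1120 oligodendrocyte-like and 944 astrocyte-like cells. The libraries shared 3 barcodes among kept cells. Levels are UMIs of a gene scaled to a fixed total of UMIs per class (CPM), with exact Poisson intervals at the 95% level. Each molecule gives a single 3' tag, so levels are not divided by transcript length, and the intervals cover counting error only.

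Endothelial-like cells had the highest summed level of the family among the classes of library 2. A sum per class does not tell more RNA per cell from more cells with the gene. The 8 members summed to 5994 CPM (5903 to 6087) in endothelial-like cells of library 2, against 1164 CPM in microglia-like, 1207 CPM in pericyte-like and 1445 CPM in oligodendrocyte-like cells. Klf2 made up 52.6% of the endothelial-like sum. The leading member differed by class: Klf6 in microglia-like cells of library 2 (33.2% of the sum), Klf9 in pericyte-like cells (31.7%) and Klf13 in oligodendrocyte-like cells (58.7%). In library 1 the sums were 709 CPM in microglia-like, 1398 CPM in oligodendrocyte-like, 569.8 CPM in astrocyte-like, 388 CPM in neuron-like and 209 CPM in choroid plexus-like cells. There Klf3 led in microglia-like cells (40.7%), Klf13 in oligodendrocyte-like cells (57.5%), and Klf9 in astrocyte-like (51.3%) and neuron-like cells (31.1%).

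**Figure D1:**
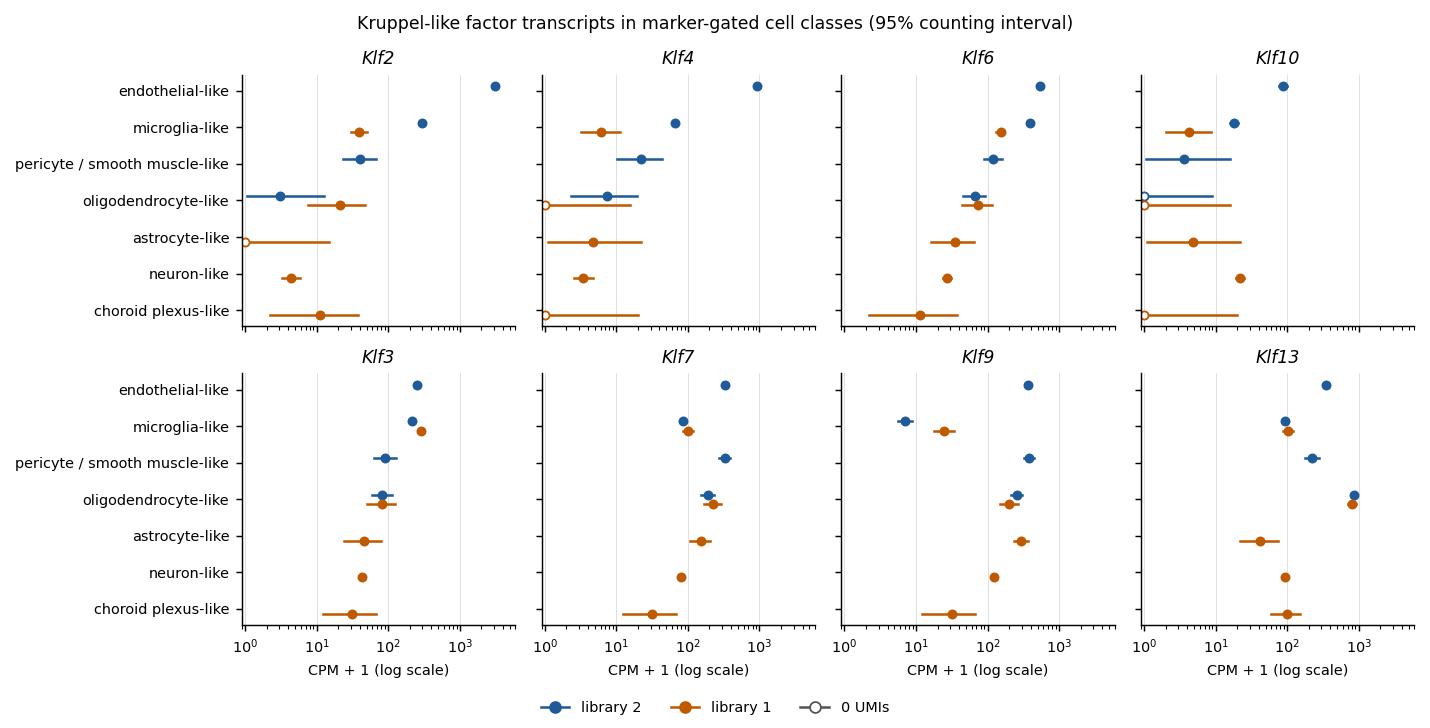
Level of each member (CPM + 1, log scale) in each cell class, with library 2 in blue and library 1 in orange. Points are sums over the cells of a class, bars the 95% counting interval, and open points classes with 0 UMIs. Klf2 and Klf4 stand highest in endothelial-like cells, Klf13 in oligodendrocyte-like cells of both libraries, and Klf9 is lowest in microglia-like cells. In library 1 the Klf9 intervals of microglia-like and choroid plexus-like cells overlap.

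The highest level of any member in these classes was that of Klf2. It reached 3152 CPM (3086 to 3219) in endothelial-like cells of library 2, against 299.6 CPM in microglia-like, 39.9 CPM in pericyte-like and 2.10 CPM (1 UMI) in oligodendrocyte-like cells. No neighbouring intervals in that order overlapped. In library 1, Klf2 was at 37.8 CPM (28.8 to 48.8) in microglia-like, 19.9 CPM in oligodendrocyte-like, 3.34 CPM in neuron-like and 10.2 CPM in choroid plexus-like cells, with 0 UMIs in astrocyte-like cells. The oligodendrocyte-like value is 5 UMIs of 1 cell, and every neighbouring pair of intervals overlapped. The 6 endothelial-like cells of library 1, too few for a level, held 34 Klf2 UMIs in 5 of the 6. Among classes under the minimum in library 2, the 12 monocyte-like or neutrophil-like cells held 141 Klf2 UMIs, 72 of them in 1 cell.

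Klf4 followed the same order at a lower level. It was at 929.65 CPM in endothelial-like cells of library 2, against 65.3 CPM in microglia-like, 21.3 CPM in pericyte-like and 6.31 CPM in oligodendrocyte-like cells, with only the last pair overlapping. In library 1 no class exceeded 5.13 CPM, the value of microglia-like cells (8 UMIs), and all neighbouring intervals overlapped. Klf4 was thus near the counting floor in library 1, where neuron-like cells had 22 UMIs (2.45 CPM) and the oligodendrocyte-like and choroid plexus-like cells had none.

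Klf6 and Klf3 were shared by endothelial-like and microglia-like cells. Klf6 was at 534 CPM in endothelial-like, 386 CPM in microglia-like, 119.7 CPM in pericyte-like and 65.2 CPM in oligodendrocyte-like cells of library 2, and the last pair overlapped. In library 1 it was at 151 CPM in microglia-like, 71.7 CPM in oligodendrocyte-like, 33.7 CPM in astrocyte-like and 26.0 CPM in neuron-like cells. Microglia-like cells stood above the others there, whose neighbouring intervals overlapped. Klf3 was at 247 CPM in endothelial-like, 212 CPM in microglia-like, 90.4 CPM in pericyte-like and 82.0 CPM in oligodendrocyte-like cells of library 2. In library 1 it was the leading member of microglia-like cells, at 289 CPM (262 to 316), against 79.7 CPM in oligodendrocyte-like, 45.0 CPM in astrocyte-like, 42.2 CPM in neuron-like and 30.6 CPM in choroid plexus-like cells. In both libraries, then, these members were higher in microglia-like than in oligodendrocyte-like cells.

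Klf10, the early gene of transforming growth factor beta, was low in all classes. It was at 86.2 CPM in endothelial-like and 17.0 CPM in microglia-like cells of library 2, with 1 UMI in pericyte-like and 0 UMIs in oligodendrocyte-like cells. In library 1, neuron-like cells had the most, 21.02 CPM (18.1 to 24.2), against 3.21 CPM in microglia-like and 3.75 CPM in astrocyte-like cells. Those in microglia-like and astrocyte-like cells were 5 UMIs and 1 UMI. Klf10 was the only member whose level in library 1 was highest in neuron-like cells. Its interval there overlapped those of astrocyte-like cells (0.0949 to 20.9) and choroid plexus-like cells (0 to 18.8).

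Klf9 was low in microglia-like cells. In library 2 it was at 6.00 CPM (4.60 to 7.69, 62 UMIs) in microglia-like cells, while endothelial-like cells had 362 CPM, pericyte-like cells 383 CPM and oligodendrocyte-like cells 254 CPM. In library 1 it was at 23.7 CPM (16.7 to 32.7) in microglia-like, 199 CPM in oligodendrocyte-like, 292 CPM in astrocyte-like and 121 CPM in neuron-like cells. Choroid plexus-like cells of library 1 were low too, at 30.6 CPM (11.2 to 66.7), with an interval that overlapped the microglia-like one. Klf9 led the family in astrocyte-like cells, although their interval (231 to 365) overlapped that of oligodendrocyte-like cells. The summed neuron markers of library 1 reached 5.52% of their neuron-like level in microglia-like cells, where Klf9 reached 19.7% of its neuron-like level and Klf10 15.3%. The part of free RNA in those low values was not tested.

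Klf13 was highest in oligodendrocyte-like cells in both libraries. It was at 847 CPM (767 to 934) in oligodendrocyte-like cells of library 2, while endothelial-like cells had 352 CPM, microglia-like cells 91.8 CPM and pericyte-like cells 223 CPM. In library 1 the oligodendrocyte-like level was 805 CPM (697 to 924), while microglia-like cells had 101 CPM, astrocyte-like cells 41.2 CPM, neuron-like cells 93.4 CPM and choroid plexus-like cells 97.0 CPM. At 1000 UMIs per cell, Klf13 was seen in 43.5% of the oligodendrocyte-like cells of library 2 and 41.5% of those of library 1, against 7.75% and 10.3% of microglia-like cells. Without thinning the shares were 80.4% and 57.4% against 39.5% and 19.9%. Median depths were 11268 and 1373 UMIs in oligodendrocyte-like and 6505 and 2203 UMIs in microglia-like cells. Within library 1 the Klf13 level was 958 CPM in the oligodendrocyte-like cells above the median depth and 256 CPM in the others. With shallower cells let in (500 UMIs, 250 genes), Klf13 was at 414 CPM in the oligodendrocyte-like cells of library 1. Klf9 differed by depth there too, at 249.6 and 18.3 CPM. In library 2 the deeper and shallower oligodendrocyte-like cells had 830.3 and 906 CPM of Klf13.

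Klf7, known for axon growth, was low in microglia-like cells of library 2 and not in pericyte-like cells. In library 2 it was at 332 CPM in endothelial-like, 85.2 CPM in microglia-like, 327 CPM in pericyte-like and 187 CPM in oligodendrocyte-like cells, and the endothelial-like and pericyte-like intervals overlapped. In library 1 it was at 99.4 CPM in microglia-like, 223 CPM in oligodendrocyte-like, 149.9 CPM in astrocyte-like, 79.2 CPM in neuron-like and 30.6 CPM in choroid plexus-like cells. The order there ran from oligodendrocyte-like through astrocyte-like and microglia-like to neuron-like cells with overlapping neighbours, and choroid plexus-like cells stood apart below.

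Members were then compared between classes. A gene was tested if it had at least 20 UMIs over both classes, and was called if its ratio of CPM + 10 was at least 2-fold. No p-value is given, because each class comes from a single pool per library and cells are not replicates. Between endothelial-like and microglia-like cells of library 2, 6 of 8 members were called higher and 0 lower, where 12.5% of the 13213 genes tested were called higher and 11.2% lower. The median log2 ratio was 1.84 for the members and -0.03 for all genes tested. The CPM ratio was 10.5 (10.1 to 10.97) for Klf2, 14.2 (13.1 to 15.5) for Klf4 and 5.06 (4.15 to 6.19) for Klf10. Klf9 had the widest ratio, 60.2 (46.6 to 79.2), and Klf7 and Klf13 had 3.90 and 3.83. The ratio was 1.38 (1.30 to 1.47) for Klf6 and 1.16 (1.07 to 1.27) for Klf3, neither called. Klf2, Klf4, Klf6 and Klf10 in microglia-like cells differed by depth, which these intervals do not cover. Klf2 was at 397 CPM above the median depth and 111 CPM in the other cells, and Klf4 at 78.7 and 39.4 CPM. Klf6 was at 451 and 262 CPM and Klf10 at 20.7 and 9.93 CPM. In endothelial-like cells Klf2 was at 3264 and 2431 CPM and Klf4 at 942 and 853 CPM. There Klf6 was at 561 and 359 CPM and Klf10 at 92.9 and 43.2 CPM. Klf2 UMIs were found in 367 of the 1523 microglia-like cells, with up to 112 in a single cell.

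Markers of each class were counted in the other. The microglia markers summed to 401 CPM in endothelial-like cells, 0.690% of their microglia-like level. The endothelial markers summed to 115 CPM in microglia-like cells, 0.427% of their endothelial-like level, where Klf2 stood at 9.50% and Klf4 at 7.03% of theirs. The part of free or mixed RNA in these levels was not tested.

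Microglia-like cells were set against the other classes next. Against pericyte-like cells of library 2, 5 members were called higher and 3 lower (12.7% and 14.0% of all genes tested). The ratio was 7.51 (4.55 to 13.4) for Klf2, 2.35 for Klf3, 3.07 (1.55 to 7.14) for Klf4 and 3.23 for Klf6. Klf10, with 1 UMI in pericyte-like cells, had 6.41 with an interval of 1.14 to 254. Klf7 had 0.260, Klf13 0.411 and Klf9 0.0157. The microglia-like UMIs of some members came from few cells. The 10% of cells with the most UMIs of a gene held 90.7% for Klf2, 85.8% for Klf4, 57.7% for Klf6 and 31.7% for Klf3. Klf10 UMIs were found in 109 of the 1523 cells. The pericyte-like cells held 4.56% of the endothelial-like level of endothelial markers and 8439.85 CPM of astrocyte markers, with Klf2 at 1.27% and Klf4 at 2.29% of their endothelial-like levels. The part of other cells' RNA there was not tested.

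Against oligodendrocyte-like cells the split was the same in library 2. Klf2, Klf3, Klf4, Klf6 and Klf10 were called higher and Klf7, Klf9 and Klf13 lower, 5 and 3 of 8, where 17.7% and 12.8% of all genes were called. Klf2 had a ratio of 142 with an interval of 25.5 to 5628, because oligodendrocyte-like cells held 1 UMI. Klf6 had 5.92 (4.17 to 8.73), and Klf10 was at least 2.70-fold higher, counting 3 UMIs for the 0 found. Klf13 had 0.108 (0.0963 to 0.122), Klf9 0.0236 (0.0171 to 0.0323) and Klf7 0.455 (0.366 to 0.573). Of the 27 immediate early genes described further on, 23 were tested over pericyte-like cells, with 17 higher and 1 lower. All genes gave 12.7% and 14.0% there. Over oligodendrocyte-like cells of library 2, 22 of them were tested, with 21 called higher and 0 lower. In library 1, 1 of the 6 members with enough UMIs was called higher and 3 lower (21.9% and 13.2% of all genes). Klf3 was higher, with 3.62 (2.32 to 5.99). Klf13 had 0.125 (0.101 to 0.155), Klf9 0.119 (0.0757 to 0.186) and Klf7 0.446 (0.326 to 0.616). The same 3 members were called lower in microglia-like cells of both libraries. For Klf9 in library 1, the oligodendrocyte-like cells at or below the median depth held 1 UMI (18.3 CPM), and the level was 154 CPM at the limit of 500 UMIs. At 1000 UMIs per cell Klf9 was seen in 2.77% of microglia-like cells (1.67% to 4.29%) and 5.32% of oligodendrocyte-like cells (1.75% to 11.98%), whose intervals overlap. Klf2 and Klf6 had ratios of 1.90 (0.770 to 6.07) and 2.10 (1.30 to 3.61) and were not called, and Klf4 and Klf10 had too few UMIs.

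Against neuron-like cells of library 1, 3 members were called higher and 2 lower (16.8% and 24.1% of all genes). Klf2 had a ratio of 11.3 (7.19 to 18.2), Klf3 6.85 (5.96 to 7.87) and Klf6 5.79 (4.81 to 6.97). Klf9 had 0.197 (0.138 to 0.273) and Klf10 0.153 (0.0490 to 0.362). Klf4 had 2.10 (0.807 to 4.89), Klf7 1.26 and Klf13 1.08, and none was called. For Klf4 the log2 ratio after 10 CPM were added was 0.28. The median gene had a log2 ratio of -0.29 in this comparison, and after division by it Klf9 alone was called lower. Against astrocyte-like cells, 4 of the 6 members with enough UMIs were called higher and 1 lower (25.7% and 14.7%). Klf3 had a ratio of 6.41 (3.64 to 12.5), Klf6 4.47 (2.31 to 9.89) and Klf13 2.44 (1.33 to 4.99). Klf2 was at least 3.36-fold higher, again counting 3 UMIs for the 0 found. Klf9 had 0.0811 (0.0533 to 0.121), and Klf7 had 0.663 and was not called. The Klf13 direction turned with a higher depth limit, where its log2 ratio was -0.20 and few astrocyte-like cells were left. The median gene stood at a log2 ratio of 0.21 against astrocyte-like cells, and at 0.15 and 0.14 against oligodendrocyte-like cells of library 2 and library 1.

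**Figure D2:**
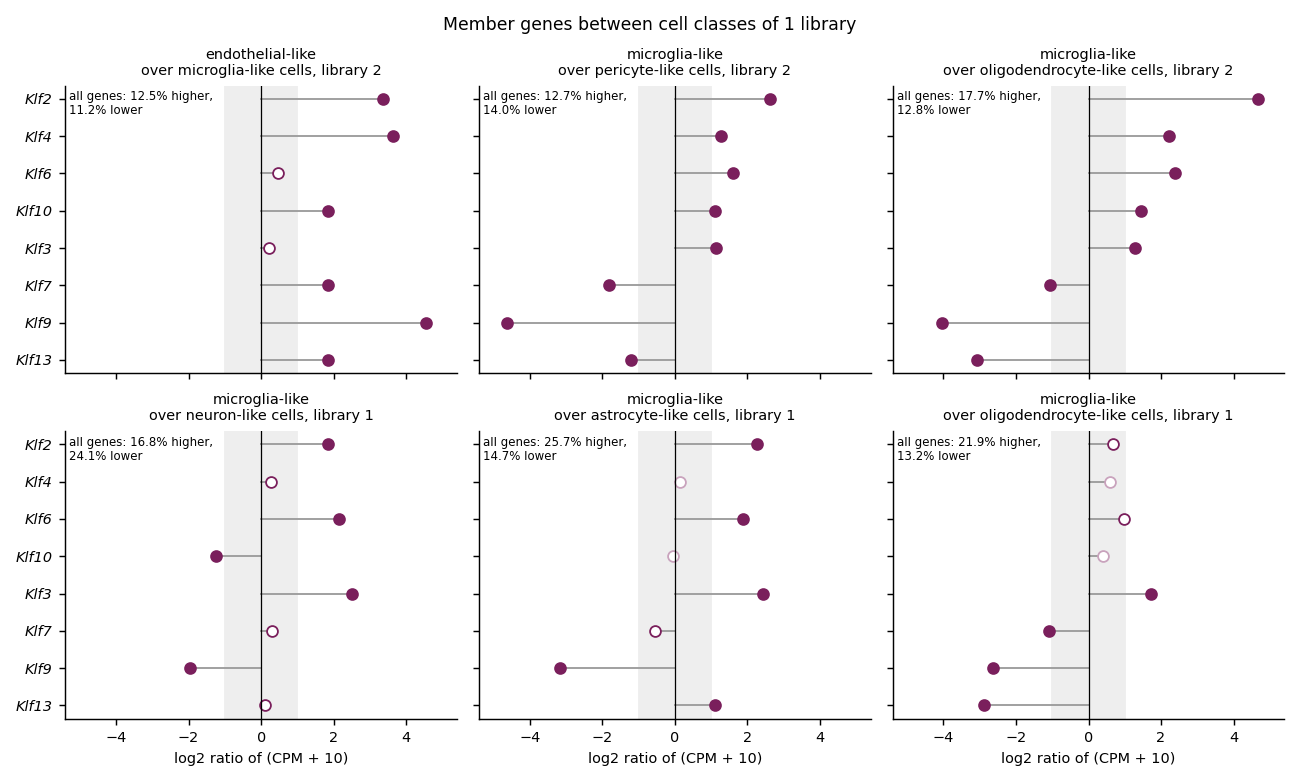
Log2 ratio of CPM + 10 for each member in 6 comparisons of cell classes, with the first-named class on top of the ratio. Filled points passed 2-fold, open points did not, pale points had under 20 UMIs, and the grey band spans ratios within 2-fold. Klf7, Klf9 and Klf13 lie left of 0 in microglia-like against oligodendrocyte-like cells of both libraries.

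The cells of a class were split into 3 equal groups (terciles) by the share of their UMIs that fell on 27 immediate early genes such as Jun, Junb, Fos and Egr1, a list that holds no member. Immediate early genes are switched on within minutes of a stimulus, tissue dissociation included. In microglia-like cells of library 2, Klf2 was at 22.9 CPM in the low, 54.8 CPM in the middle and 706 CPM in the high tercile. Klf4 was at 13.1, 25.3 and 137 CPM, and Klf6 at 126, 191 and 740.2 CPM. These 3 and Klf10, at 6.55, 14.5 and 27.0 CPM, were called higher in the high tercile, 4 of 8 members, where 1.32% of the 11103 genes tested were, and 0.423% were lower. The high over low ratio was 30.8 (24.3 to 39.6) for Klf2, 10.5 (7.58 to 14.8) for Klf4, 5.88 (5.29 to 6.56) for Klf6 and 4.12 (2.54 to 7.02) for Klf10. The other members did not follow. Klf3 had a ratio of 0.670 (0.605 to 0.743), while the intervals of Klf7 (0.792 to 1.09), Klf9 (0.550 to 2.41) and Klf13 (0.853 to 1.17) spanned 1. In the low tercile Klf2 and Klf4 were not above their pericyte-like levels (39.9 and 21.3 CPM), and Klf6 was near its own (119.7 CPM). Oligodendrocyte-like cells of library 2 had 6.31 CPM of Klf4 and 0 UMIs of Klf10. The calls of microglia-like cells over those classes used all terciles together.

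The terciles differ widely in what defined them. Immediate early genes had a median of 1810.5, 5481 and 39728 CPM in the low, middle and high tercile of these microglia-like cells. Median depth was 6150, 6040 and 7615 UMIs. The endothelial markers summed to 120.3, 128 and 99.2 CPM and those of border-associated macrophages to 523, 387 and 230.4 CPM. Those of monocytes or neutrophils summed to 272, 280.3 and 240.5 CPM. The part of other cells in the result was not tested. The microglia markers summed to 58638, 60104 and 56158 CPM. The median gene had a log2 ratio of -0.16 between the high and the low tercile.

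In microglia-like cells of library 1 the immediate early share was far narrower, with medians of 1076, 2164 and 3256 CPM. Klf2 was at 40.4, 29.5 and 44.2 CPM in the low, middle and high tercile and Klf6 at 146, 161 and 145 CPM. No member was called (0 of the 6 with enough UMIs, with 0.562% of all genes called higher and 0.633% lower), and the interval of every member's ratio spanned 1. Neuron-like cells of library 1 likewise gave 0 calls among 7 members, with 0.268% of all genes called higher and 0.0223% lower. Klf10, the member with the highest ratio there apart from Klf2, had 1.33 (0.924 to 1.93).

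Endothelial-like cells of library 2 showed a smaller spread of the same members. Klf2 was at 1365, 2634 and 4072 CPM in the low, middle and high tercile, Klf4 at 432, 715 and 1235 CPM and Klf6 at 199.6, 431 and 709.95 CPM. These were the 3 members called higher, where 2.23% of the 8240 genes tested were, and 3.71% were lower. The ratio of the high over the low tercile was 2.98 (2.74 to 3.25), 2.86 (2.46 to 3.35) and 3.56 (2.85 to 4.49) for Klf2, Klf4 and Klf6. Klf10 had 1.56 (1.03 to 2.43), Klf9 1.35 (1.11 to 1.66) and Klf7 0.695 (0.581 to 0.833), and Klf3 and Klf13 had intervals that spanned 1. Even the low tercile had more Klf2 than the high tercile of microglia-like cells, 1365 CPM against 706 CPM. Depth was higher in the higher terciles, with medians of 4657, 8704 and 11315 UMIs. Markers of monocytes or neutrophils summed to 158, 479 and 1037 CPM. In the middle and the high tercile 4 of these 8 markers held UMIs, and Ly6c2, Ccr2, Plac8 and Retnlg had none. In the low tercile 5 held UMIs, and Ccr2, Plac8 and Csf3r had none. Markers of astrocytes fell, at 1537, 977 and 646 CPM, as did those of choroid plexus, at 1516, 904 and 546 CPM. Pericyte markers were at 1337, 1024 and 927 CPM, and neuron markers at 216, 113 and 87.6 CPM. Those of erythrocytes and oligodendrocyte precursors fell too. Oligodendrocyte markers rose, at 880, 1129 and 1326.5 CPM, as did the few of T, NK or B cells. Microglia, border-associated macrophage and fibroblast markers had no steady direction. The part of depth and of other cells in the result was not tested.

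**Figure D3:**
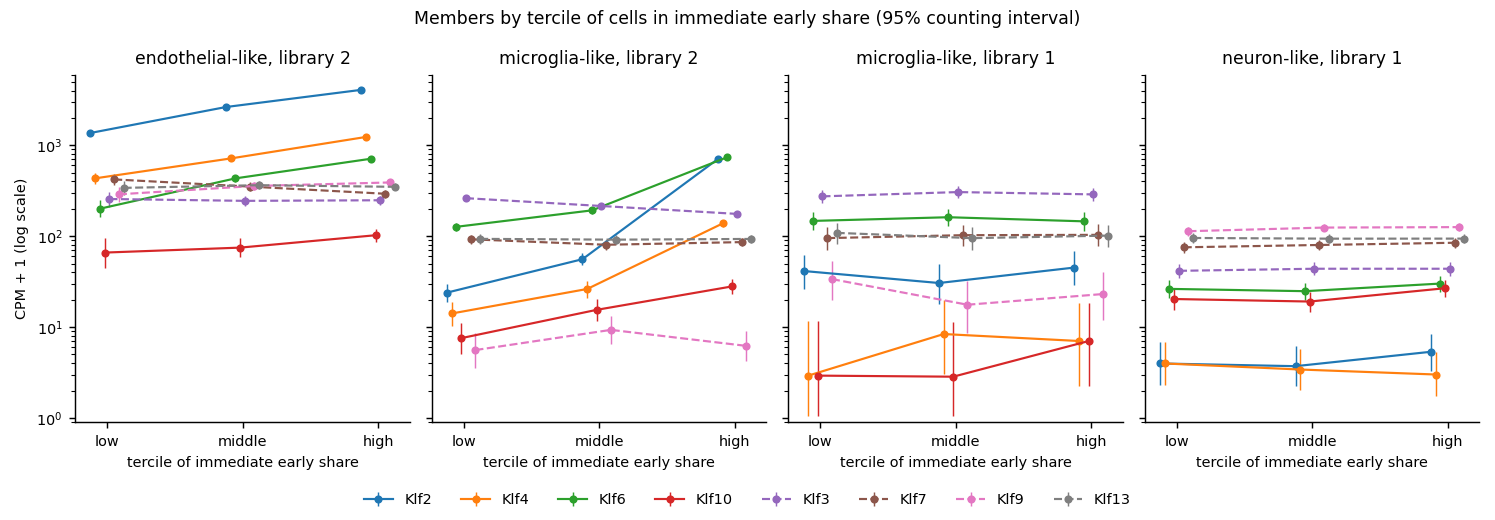
Level of each member (CPM + 1, log scale) by tercile of the immediate early share in 4 groups of cells, with 95% counting intervals. Klf2, Klf4 and Klf6 are highest in the high tercile of endothelial-like and microglia-like cells of library 2, and no member passed 2-fold in library 1.

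Detection in single cells was compared after each cell was thinned to 1000 UMIs. Klf2 was seen in 78.5% of endothelial-like, 9.85% of microglia-like and 1.28% of pericyte-like cells of library 2, and in 0 of 46 oligodendrocyte-like cells, which allows a share of up to 6.52% at that depth, counting 3 cells for the 0 found. Unthinned, the shares were 95.3%, 24.1%, 10.3% and 2.17%, at median depths of 7694.5, 6505, 4632 and 11268 UMIs. Klf4 was found in 54.1% of the 135 endothelial-like cells with a Klf2 UMI (45.3% to 62.7%) and in 21.6% of the 37 without (9.83% to 38.2%). In microglia-like cells of library 2 Klf6 was found in 44.7% of the 150 cells with Klf2 (36.6% to 53.0%) and in 20.03% of the 1373 without (17.9% to 22.2%). In library 1 the intervals overlapped, with Klf6 in 3 of 25 microglia-like cells with Klf2 (2.55% to 31.2%) and in 14.7% of the 662 without (12.05% to 17.6%). Klf3 in microglia-like cells of library 2 was found in 15.3% with and 19.4% without Klf2, with overlapping intervals. Endothelial-like cells held several members at once: 30.8% had 2 and 27.3% had 3, while 46.2% of microglia-like cells had 0 and 37.6% had 1. Klf9 was seen in 25.0% of endothelial-like, 0.525% of microglia-like and 28.2% of pericyte-like cells.

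Among neuron-like cells of library 1, subtypes were set apart by markers for 1075 dentate granule, 887 CA1, 571 CA3 and 208 GABAergic cells. Klf9 was highest in dentate granule and lowest in GABAergic cells, at 150.4 CPM (132 to 170.2) in dentate granule, 120.3 CPM (105 to 137) in CA1, 96.4 CPM (81.2 to 114) in CA3 and 33.5 CPM (17.8 to 57.2) in GABAergic cells. Klf13 was highest in dentate granule cells, 138 CPM (121 to 157), with 72.0 CPM in CA1, 70.6 CPM in CA3 and 84.9 CPM in GABAergic cells. Only the dentate granule interval lay apart from all others for Klf13, whereas for Klf9 the intervals of dentate granule and CA1, and of CA1 and CA3, overlapped. Over the processing settings tried, Klf13 ranged from 104 to 149 CPM in dentate granule and from 78.4 to 103 CPM in GABAergic cells. It reached at most 77.4 CPM in CA1 and 75.0 CPM in CA3 cells. Klf10 was higher in pyramidal cells, at 7.82 CPM (4.16 to 13.4) in dentate granule cells, 29.0 CPM (21.8 to 37.9) in CA1, 30.5 CPM (22.3 to 40.9) in CA3 and 5.15 CPM (2 UMIs) in GABAergic cells. Klf6 was at 12.03 CPM (7.35 to 18.6) in dentate granule cells and 27.4 CPM (20.4 to 36.0) in CA1. The Klf6 intervals of CA3 cells (19.7 CPM, 13.2 to 28.3) and GABAergic cells (28.3 CPM, 14.1 to 50.7) overlapped the dentate granule one. Klf3 and Klf7 ranged from 39.1 to 59.1 CPM and from 63.8 to 88.9 CPM. Klf2 and Klf4 had at most 10 UMIs in any subtype.

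**Figure D4:**
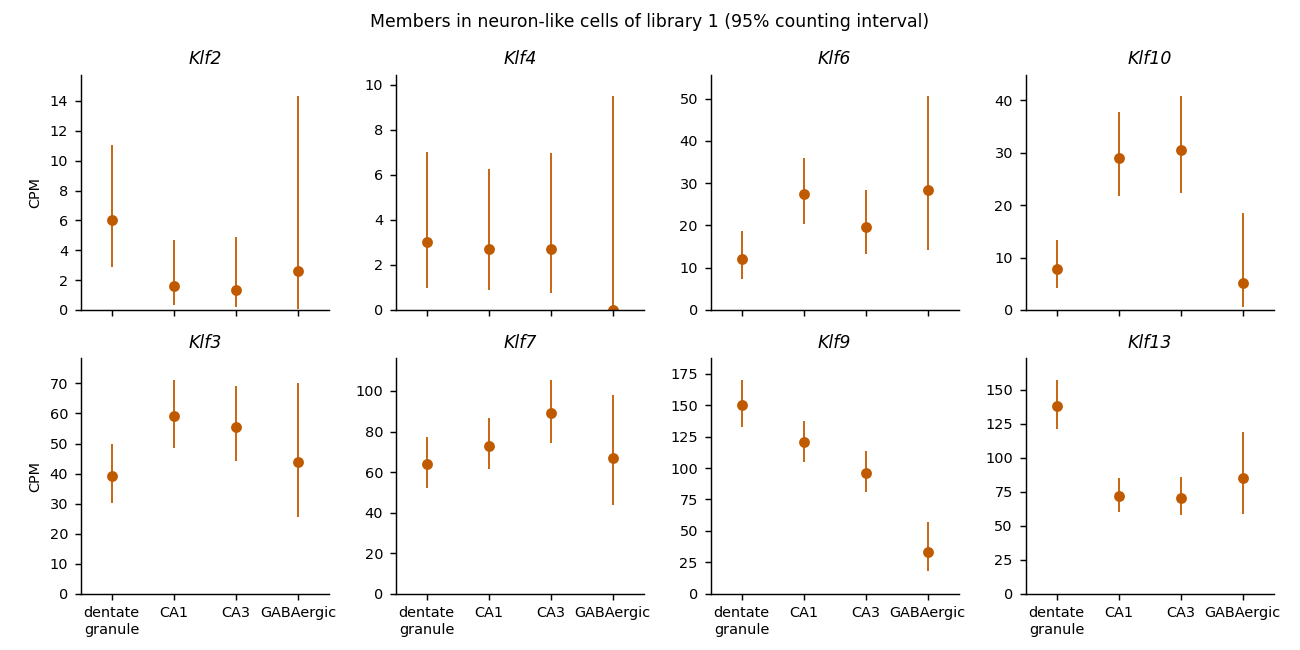
Level of each member (CPM, axis from 0) in the 4 neuron-like subtypes of library 1, with 95% counting intervals. Klf9 and Klf13 are highest in dentate granule cells, at 150.4 and 138 CPM, and Klf10 in CA1 and CA3 cells, at 29.0 and 30.5 CPM.

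Of the 18 other Klf and Sp genes, none reached the level of the leading member in the same class. Sp3 was the highest of them, at 123 CPM in endothelial-like cells of library 2, above the 86.2 CPM of Klf10 there. Microglia-like cells of library 2 had 82.7 CPM of Sp3. Sp1 peaked at 106 CPM and Sp4 at 53.2 CPM, both in pericyte-like cells. Klf15, a glucocorticoid-induced gene, was at 116 CPM in astrocyte-like cells of library 1, while microglia-like cells had 3.21 CPM, a ratio of 0.0276 (0.00838 to 0.0716). Klf15 shared with Klf9 its low level in microglia-like and high level in astrocyte-like cells, but not its level in some other classes. In endothelial-like and pericyte-like cells of library 2 and neuron-like cells of library 1, Klf15 was at 4.36, 18.6 and 10.6 CPM. Klf9 was at 362, 383 and 121 CPM there. Between endothelial-like and microglia-like cells 1 of 9 tested genes of this group was called higher, near the 12.5% of all genes. It was Klf11, with 26.6 CPM and 3.10 CPM.

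Genes linked to these factors were counted in the same endothelial-like against microglia-like comparison. There, 12.5% of all genes tested were called higher and 11.2% lower. Of 6 genes that KLF2 or KLF4 induce in cultured endothelium, 5 were called higher and 0 lower. They include Timp3, a metalloproteinase inhibitor, at 1273 CPM and 11.4 CPM, and Thbd, the anti-clotting receptor thrombomodulin, at 324 CPM and 1.36 CPM. S1pr1, a sphingosine-1-phosphate receptor, was at 473 CPM and 34.4 CPM, and Tek, the angiopoietin receptor, at 295 CPM and 0.290 CPM. Of 5 genes that KLF2 or KLF4 repress there, 3 were called higher and 1 lower. Vcam1, an adhesion molecule, was at 967 CPM and 16.5 CPM, Edn1, which encodes endothelin, at 154 CPM and 5.52 CPM, and Sele, the E-selectin gene, at 48.0 CPM and 0 CPM. Most genes of both lists were thus higher in endothelial-like cells, and several of them are typical endothelial genes. Of 10 glucocorticoid-induced genes 7 were called higher and 1 lower, while of the 27 immediate early genes 25 were tested, with 7 higher and 6 lower. Of 7 genes for co-repressors and a ligase that act on members 1 was called higher, the ligase gene Wwp1, at 98.9 CPM and 36.8 CPM, a share near that of all genes.

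Genes with levels most like each member were ranked over 8 class sums, 5 from library 1 and 3 from library 2, by Pearson r of log2(CPM + 10) among 8501 genes. For Klf2 these were Piezo1 (0.97), a mechanically gated ion channel gene, Klf4 (0.96) and Gbp5 (0.96). For Klf4 they were Gch1 (0.96), Klf2 (0.96) and Cd93 (0.95). The nearest genes were Pla2g4a, Gm8995 and Lmo2 for Klf3, Pabpc1, Ier3ip1 and Fcho2 for Klf6, and Elovl5, Snrnp200 and Sav1 for Klf7. They were Fermt2, Lrrc8b and Fam13c for Klf9, Fosl2, Arhgef3 and Coro2a for Klf10, and Ccnyl1, Mtmr2 and Abhd17a for Klf13. Between members, r was highest for Klf2 with Klf4 (0.96) and for Klf3 with Klf6 (0.92), and lowest for Klf3 with Klf9 (-0.23). These points share libraries and depth, library and class are confounded, 8 are few among 8501 genes, and the ranking is a description.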

How the data were processed

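The counts that the authors deposited are whole-number UMIs for every gene in every barcode, with no normalization. Cell Ranger 3.0.1 and GRCm38.p5 are named per the submitters' processing notes. Barcodes below 1000 UMIs or 500 genes, or above 10% mitochondrial UMIs, were dropped, and doublets were removed with Scrublet (scanpy 1.11.5). In library 1 the default cut removed 12.8% of barcodes. In library 2 it found none, and the top-scoring 5.16%, the expected rate, were taken out instead. A cell joined a class with UMIs of at least 3 of its markers and at least 2 times the marker UMIs of the next class, and neuron-like subtypes needed 2 markers and the same lead. These gate settings were chosen after the counts had been seen. UMIs were summed per class and library and given as CPM. Intervals are exact at the 95% level (Poisson, Clopper-Pearson for shares, conditional binomial for ratios; scipy 1.17.1), cover counting error only, and 0 UMIs are read as allowing 3. Calls use CPM + 10, 2-fold and at least 20 UMIs over both classes. On simulated counts with known ratios the calls and the Poisson and ratio intervals were tested before use. Those counts were independent Poisson draws per class, so they do not cover differences between cells. The gate and the doublet step were not simulated. The members, gene lists and tests were chosen with earlier results of these data known. All 8 members are named, with up to 4 genes per background list by level in the class described and up to 4 other family genes by highest level. No sample has a group, so p-values and comparisons between libraries are left out. For library 2, title and file names carry unlike sample numbers, and library membership follows the deposit record. The values of 1 gene of a background list are not reported here.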

Additional observations from a re-analysis of the deposited data

How the results depend on the processing

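Counts of called members were recomputed under 12 other settings, and 128 of 144 between classes and 95 of 96 between terciles stayed within 1.5 times the reported count. The exceptions follow. In microglia-like over oligodendrocyte-like cells of library 1, where 1 member was called higher, 3 were called with at least 500 UMIs and 250 genes per cell, 2 each with a mitochondrial limit of 20%, with each cell given the same weight, or with 1 CPM added, and 0 at 4-fold. With 50 CPM added, the members called higher in microglia-like cells were 2 against pericyte-like and 3 against oligodendrocyte-like cells of library 2 and 2 against astrocyte-like cells, and 1 was called lower against neuron-like cells. At 4-fold, 3 members were higher in endothelial-like over microglia-like cells, 1 was higher and 1 lower in microglia-like over pericyte-like cells, 3 were higher over oligodendrocyte-like cells of library 2, 0 were lower over neuron-like cells and 2 were higher over astrocyte-like cells, and 0 members were higher in the high tercile of endothelial-like cells. With ratios divided by the median ratio of all genes, 1 member was lower in microglia-like over neuron-like cells. Of 480 single ratios between classes, 384 stayed within the counting interval, 95 moved beyond it and 1 changed direction: the log2 ratio of Klf13 in microglia-like over astrocyte-like cells was -0.20 at 2000 UMIs per cell, against 1.11. At that limit 16 astrocyte-like cells were left. Of 224 ratios between terciles 20 moved beyond the interval, as did 41 of 728 levels. No paired analysis was possible because no label gives a group and each library is a single pool. Depth limits Klf4 and Klf10 in library 1, where most classes held under 10 UMIs of either, and the 46 oligodendrocyte-like cells of library 2.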
